A study of Mus musculus with 15 samples.

Results

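This comparison covers the motor neurons of mice with spinal muscular atrophy (SMA) that received the p38 inhibitor MW150, set against those of SMA mice that received vehicle. It uses 6 of the study's 15 libraries, 3 of SMA+MW150 and 3 of SMA, and 15425 of the 36144 genes listed, those that reached a TPM of 1 in at least 3 of the 15 libraries. TPM is a relative abundance of transcripts, corrected for their length and for the size of the library. SMA mice are SMNΔ7 pups on an FVB background with the genotype Smn-/-;SMN2;SMNdelta7. They lack mouse Smn1 and carry human SMN2 and the SMNΔ7 transgene. The WT littermates are Smn+/+;SMN2;SMNdelta7, so the controls carry both human transgenes too, and they received vehicle like the SMA group. MW150 was given at 5 mg/kg, by daily intraperitoneal injection from postnatal day 0. The same scheme was used for Pifithrin-alpha, an inhibitor of p53, at 2.2 mg/kg and, at 3 mg/kg, for SMN-C3, which corrects how SMN2 is spliced. At postnatal day 6, L1 to L3 motor neurons that carried the retrograde tracer cholera toxin subunit B were cut out of the lumbar cord with a laser, and polyadenylated RNA was sequenced after amplification. The labels call the libraries biological replicates and do not say how many animals each one holds.

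The p38 kinases are stress-activated MAP kinases. Upstream kinases such as MKK3 and MKK6 switch them on by phosphorylation, and they in turn phosphorylate other kinases such as MK2, transcription factors such as ATF2, and p53. MW150 is a small molecule that enters the brain and blocks the catalytic activity of p38α. In SMA mice, p53 accumulates in vulnerable motor neurons and takes part in their death, and p38 is one of the kinases placed upstream of p53 in that process. Kinase activity and p53 phosphorylation are not measured by RNA, so what follows concerns transcript levels alone.

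The library with the fewest genes at 1 TPM or more among the 6 was SMA 1 with 13539, and SMA 3 had the most with 14916. Mitochondrially encoded genes took 3.76% to 7.15% of all TPM in SMA and 5.68% to 7.52% with MW150. Chat, the acetylcholine-synthesizing enzyme that defines motor neurons, was at 73.5 to 118 TPM in all 6 libraries. RNA of other cells was present as well. The 15 oligodendrocyte lineage markers summed to 972 to 4806 TPM in SMA and 1090 to 6635 TPM with MW150. Red blood cell markers summed to 789 to 3549 TPM in SMA and 841 to 1943 TPM with MW150. SMA 1 was the lowest SMA library in both sums, and SMA+MW150 2 the lowest MW150 library. Astrocyte markers summed to 1763 to 2615 TPM and 2072 to 2521 TPM, vascular markers to 149 to 190 TPM and 105 to 166 TPM, and spinal interneuron markers to 23.8 to 42.3 TPM and 37.8 to 48.7 TPM, with Tlx3 at 0 throughout. In such captured material, fewer cells of a type and less RNA per cell cannot be told apart. Sequencing depth cannot be read from TPM values.

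Hardly any gene differed between MW150 and vehicle by more than the spread between libraries allows a call for. Of 15425 genes, 1 was called in limma's moderated test at a Benjamini-Hochberg adjusted p under 0.05, which is 0.00648% of those tested. It was Traj45, a short T cell receptor segment, and it was lower. Before adjustment, 233 genes (1.51%) had a p under 0.05 and were higher with MW150, and 60 (0.389%) were lower, or 185 and 96 after median-of-ratios scaling, which divides each library by a size factor. These counts moved with the libraries and the fit: they were 115 and 90 without SMA 1, 411 and 67 without SMA 2, 686 and 214 in a fit of these groups alone, and 969 and 286 with array weights. All 3 MW150 libraries lay above all 3 SMA libraries in 1161 genes (7.53%), and below them in 526 (3.41%). Below, such genes are said not to overlap. The surplus of higher genes went with the scale: the median log2 change of all genes was 0.06, and scaling brought it to -0.01. After scaling 832 genes (5.39%) lay above and 816 (5.29%) below. Log2 changes are differences in log2(TPM+1) between group means, SMA+MW150 minus SMA, and understate changes of weakly expressed genes. The 95% interval of a gene's change reached a median of 0.84 to either side, and for 41.5% of genes the whole interval lay between -1 and 1. Every other gene named below had an adjusted p of 1 against SMA unless a value is given.

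**Figure D1:**
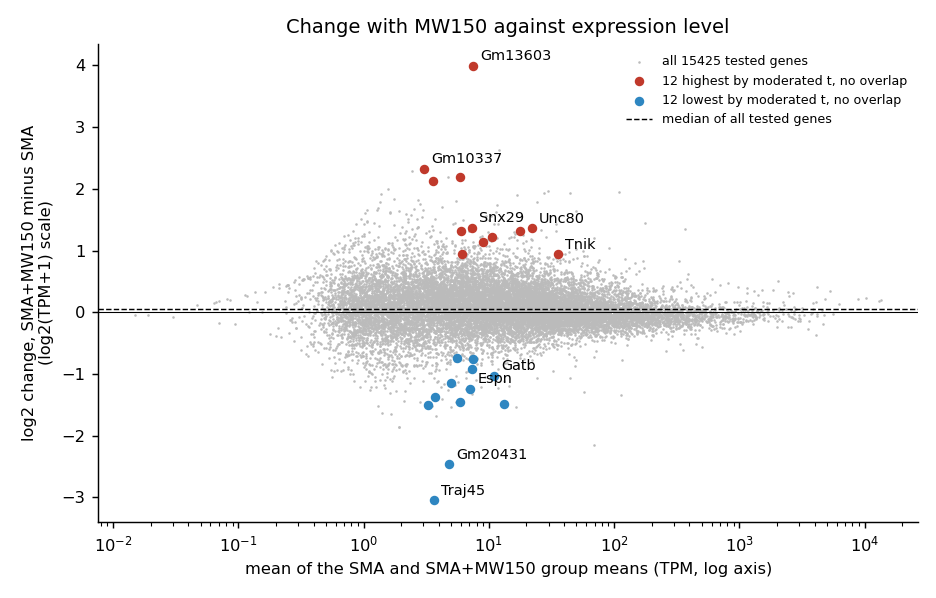
Log2 change with MW150 (vertical axis, log2(TPM+1) scale) against the mean TPM of the SMA and SMA+MW150 groups (horizontal log axis), with 1 point per tested gene. Coloured points are the 12 genes with the highest and the 12 with the lowest moderated t among genes without overlap. Traj45 and Gm13603 stand farthest out, at -3.05 and 3.99, and the dashed line marks the median of 0.06.

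Both genes at the extremes are features shorter than a single sequencing read. They are shown because a reader can judge from the letters how little sequence carries each value. Capitals are not used in either of them. Positions are those of GENCODE M21 on GRCm38, for Traj45 chr14:54172828-54172890 and for Gm13603 chr2:67765977-67766059, both on the plus strand and each read 5′ to 3′.
Traj45: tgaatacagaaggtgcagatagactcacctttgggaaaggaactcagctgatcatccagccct
Gm13603: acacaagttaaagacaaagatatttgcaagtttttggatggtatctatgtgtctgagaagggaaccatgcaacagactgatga

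Traj45 is a joining segment of the T cell receptor alpha locus and has 63 bases, against reads of 100 bases. Its values were 6.29, 8.25 and 7.42 TPM in SMA 1, 2 and 3, and it was listed at 0 in all 3 MW150 libraries. The same held for the other 9 libraries of the study, so the SMA libraries stand apart from WT as much as from MW150. The difference on the log2(TPM+1) scale, which the added 1 sets in part, was -3.05 (SE 0.28, limma's adjusted p = 9.2e-05). The gene passed the filter only through the 3 SMA libraries. All libraries at 0 add no spread to the fit, and the SE lay below the median of 0.40 over all genes. The p-value therefore rests in part on those zeros. None of its 33 words of 31 bases occurred in transcripts of another gene. The table lists 60 Traj segments. Those above 0 numbered 6, 3 and 12 in the SMA libraries and 1, 4 and 3 in the MW150 libraries, so the groups overlapped in that number. Of 10 T cell markers, 2 passed the filter; the 10 summed to 14.4 to 19.99 TPM in SMA and 9.80 to 22.7 TPM with MW150. Over the alternatives the adjusted p ran from 8.4e-08 to 0.070. The call was lost with a pseudocount of 0.1, at 0.070, and without any 1 of the 3 SMA libraries the gene no longer passed the filter. The same call, on the single transcript of Traj45, was the 1 call among 41719 transcripts (0.0024%).

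Gm13603 is annotated as a processed pseudogene of 83 bases. It was listed at 0 in all SMA libraries and at 14.6, 16.0 and 14.3 TPM with MW150. Outside these groups it was at 14.4 TPM in 1 WT library and at 0 in the other WT libraries. Its adjusted p was 0.23 (0.0013 to 1 over the alternatives), and it was called only when the fit held no other groups or weighted the libraries. None of its 53 words of 31 bases occurred in another gene's transcripts.

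In all, 963 genes had a mean of at least 5 TPM in either group and no overlap both before and after scaling, and they were ranked by moderated t. On the higher side Gm13603, Snx29, Rps13-ps4, Rpl10-ps6 and Gm10337 came first. The neuronal genes Sipa1l1, Unc80 and Tnik ranked below them among the 12. Snx29, a sorting nexin, was at 2.16, 5.45 and 3.68 TPM in SMA and at 13.3, 10.7 and 8.87 TPM with MW150, a log2 change of 1.37 (95% interval 0.58 to 2.16). Unc80, a subunit of the NALCN sodium leak channel complex that holds the resting potential, was at 8.04, 20.9 and 9.01 TPM against 37.8, 30.6 and 26.2 TPM. Tnik, a kinase of the postsynaptic density, was at 19.3, 30.3 and 22.5 TPM against 57.4, 41.1 and 42.0 TPM. Unc80 and Tnik averaged 49.2 and 52.6 TPM in WT, so the MW150 libraries lay nearer to the WT mean than the SMA libraries did. That mean includes WT 1, which had a mitochondrial share of 21.9%. In WT 1 long genes also stood high relative to short ones, as described below. The part of WT 1 in these means was not tested. Sipa1l1, which acts on Rap signalling at synapses, had a log2 change of 1.21 (0.41 to 2.01), and WT averaged 7.83 TPM, closer to the SMA mean of 5.93 TPM than to the MW150 mean of 15.3 TPM. Dusp11, an RNA phosphatase, was at 10.01, 14.6 and 5.66 TPM in SMA and at 25.5, 29.4 and 21.1 TPM with MW150. Antxr1, a receptor for collagen, Krtap17-1, a keratin-associated gene, and Dele1, which relays mitochondrial stress, completed the higher side with log2 changes of 1.32, 1.14 and 0.95.

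The other 3 names on the higher side are of uncertain origin. Rps13-ps4 and Rpl10-ps6 are pseudogenes that share 92.7% and 95.8% of their 31-base words with other genes, most with Rps13 and Rpl10, and Gm10337, which shares 97.0%, overlaps Map3k12 on the other strand. On the lower side the same holds for Gm20431, which shares 98.9% of its words, most with Ube2v1, and for Gm3219, which shares all of its words with Bcl7c. Trav6-7-dv9, a T cell receptor variable segment, shares 67.6%.

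The remaining lower genes had moderate levels. Espn, an actin-bundling protein, was at 17.1, 8.76 and 6.05 TPM in SMA and at 3.72, 4.85 and 2.40 TPM with MW150, with a WT mean of 0.963 TPM. Tmem51, a membrane protein gene that overlaps Tmem51os1 on the other strand, was at 7.56, 6.68 and 3.41 TPM against 1.53, 0.957 and 2.35 TPM, near the WT mean of 1.66 TPM. Il1r2, the decoy receptor of interleukin 1, was at 10.4, 4.49 and 7.01 TPM against 2.44, 3.55 and 1.97 TPM. In all 3 genes the MW150 libraries lay between SMA and WT or within the WT range. Gatb, part of the mitochondrial enzyme that makes glutaminyl-tRNA, was steady in SMA at 14.0 to 16.5 TPM and ranged from 3.96 to 11.3 TPM with MW150. Inpp4b, a phosphoinositide phosphatase, was at 6.99 to 7.605 TPM in SMA and 3.48 to 4.38 TPM with MW150, and WT averaged 7.37 TPM. Depp1, a target of FOXO factors, Stra6, a transporter of retinol, and Mlf1 had log2 changes of -0.92, -1.46 and -0.75.

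**Figure D2:**
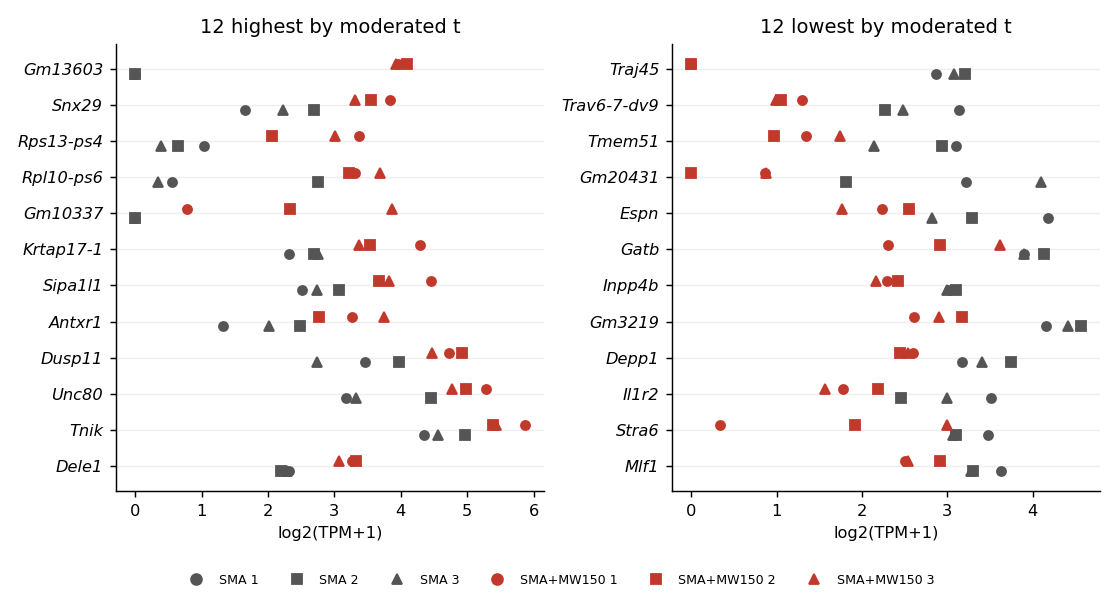
TPM of the 24 ranked genes as log2(TPM+1) in each of the 3 SMA (grey) and 3 SMA+MW150 (red) libraries, with marker shapes for the replicate number. By the ranking rule no gene overlaps between the groups. Gaps are widest for Gm13603 and Traj45 and narrow for genes such as Stra6.

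Transcript levels of the inhibited kinase overlapped between the groups. Mapk14 encodes p38α (chr17:28691329-28748406, plus strand) and was at 7.28, 9.71 and 12.4 TPM in SMA and 9.17, 10.9 and 18.1 TPM with MW150. The groups overlapped, and the log2 change was 0.32 (95% interval -0.53 to 1.17). Mapk11, which encodes p38β, was at 9.52, 8.47 and 10.3 TPM against 10.2, 12.8 and 14.6 TPM, a change of 0.37 (-0.75 to 1.48). Mapk12, p38γ, was at 7.67, 15.7 and 19.1 TPM against 18.4, 17.4 and 21.5 TPM. Mapk13, p38δ, stayed under 2.5 TPM in all 6 libraries. By mean TPM, which is per length, p38γ was the most abundant of the 4 messages in SMA and p38δ the least, but in SMA 1 p38β lay above p38γ.

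Genes that feed into p38 lay slightly to the higher side. Of 18 upstream kinases and adaptors, 14 had a change above 0 (77.8%, beside 57.9% of all genes) and 4 below. Their median was 0.19 against 0.06 for all genes, or 0.12 against -0.01 after scaling. In 3 (16.7%, beside 7.53% of all genes) MW150 lay above SMA without overlap, and in 2 after scaling (11.1%, beside 5.39%). None was called. In limma's test 2 had an unadjusted p under 0.05, both higher, beside 1.51% of all genes. Gadd45b, which binds and activates an upstream kinase after stress, was at 7.50, 2.77 and 8.93 TPM in SMA and 12.0, 14.99 and 15.8 TPM with MW150, a change of 1.15 (0.25 to 2.05). The MW150 libraries fell inside the WT range of 7.62 to 16.8 TPM. Map3k5, the stress-sensing kinase ASK1, was at 1.72, 0.628 and 1.16 TPM against 4.27, 1.77 and 3.50 TPM, and overlapped after scaling. The direct activators overlapped. Map2k3, which encodes MKK3, was at 46.5, 17.0 and 24.2 TPM against 21.9, 33.0 and 26.2 TPM, a change of -0.01 (-1.05 to 1.03). Map2k6, which encodes MKK6, was at 5.83 to 8.71 TPM and 7.03 to 9.95 TPM.

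Substrates, phosphatases and stress outputs of the pathway overlapped for the most part. Of 15 substrates and downstream kinases 10 were above 0 and 5 below (median 0.12, scaled 0.05). Without SMA 1, 7 were above 0 and 8 below, with a median of -0.04, and without SMA+MW150 3 the median was 0.01. Mapkapk2, which encodes MK2, was at 15.6, 13.4 and 21.3 TPM against 14.4, 16.6 and 14.4 TPM. Mknk1, a kinase that phosphorylates the cap-binding factor eIF4E, did not overlap, at 7.51 to 11.2 TPM against 12.2 to 15.8 TPM. Hspb1, the small heat shock protein downstream of MK2, was at 43.5 to 69.5 TPM against 59.2 to 107 TPM. The 6 phosphatases that switch p38 off split evenly, 3 and 3. Dusp1, which is itself induced by p38 signalling, had a change of 0.01 (-0.71 to 0.72), or -0.07 after scaling. Ppm1d, a phosphatase of both p38 and p53, was at 11.95, 9.86 and 7.68 TPM in SMA and 3.08, 8.35 and 5.03 TPM with MW150, a change of -0.80 (-1.65 to 0.05). Over the 43 kinases, adaptors, substrates and phosphatases together, the median deviation of a library from the mean of the 6 was -0.10, -0.10 and -0.04 in SMA and 0.06, 0.08 and 0.05 with MW150. The median of all genes ran from -0.06 in SMA 1 to 0.06 in SMA+MW150 1, and there the groups overlapped. Without an account of strand, reads of Dusp1, Jun, Mknk1 and Cdkn1a cannot be told from those of genes annotated on the other strand; the same holds for Antxr1, Dusp11, Dele1, Icam1, Trp73, Cacna1a, Mrpl13 and Tap1.

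Of 12 inflammatory messages whose stability depends on p38, 7 were expressed enough to be tested, with 5 changes above 0 and 2 below. Icam1, an adhesion molecule, was at 38.5, 8.97 and 11.2 TPM in SMA and 6.70, 5.94 and 7.91 TPM with MW150. The groups did not overlap, but SMA 1 set most of the size: without it the change went from -1.11 to -0.50. Ccl3, a chemokine of myeloid cells, was at 8.14, 4.30 and 0 TPM with MW150 and at 0, 0 and 1.11 TPM in SMA. Among 19 immediate early, AP-1 and injury genes, 9 lay above 0 and 10 below (median -0.01, scaled -0.08). Jun was at 95.9, 85.2 and 111 TPM in SMA and 113, 134 and 117 TPM with MW150, and overlapped after scaling. Fos was at 37.3 to 49.8 TPM against 33.0 to 44.4 TPM. Klf4, a stress-responsive transcription factor, was at 1.34, 1.35 and 1.75 TPM against 5.74, 4.16 and 3.01 TPM, and Nr4a1, an orphan nuclear receptor, at 3.67, 3.005 and 4.36 TPM against 0.986, 1.90 and 1.90 TPM. Those 2 genes did not overlap and went opposite ways. In the list 3 genes lay above SMA without overlap (15.8%, beside 7.53% of all genes) and 1 below (5.26%, beside 3.41%). After scaling 2 lay above (10.5%, beside 5.39%) and 1 below (5.26%, beside 5.29%). Atf3, which is induced by axonal injury, was at 10.9 TPM in SMA+MW150 2 and at 0.844 to 1.48 TPM in the other 5 libraries. Gal, a neuropeptide of injured neurons, reached 201 TPM in the same library, against 15.8 and 20.02 TPM in the other MW150 libraries. It was at 8.76 to 10.9 TPM in SMA, so Gal did not overlap.

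**Figure D3:**
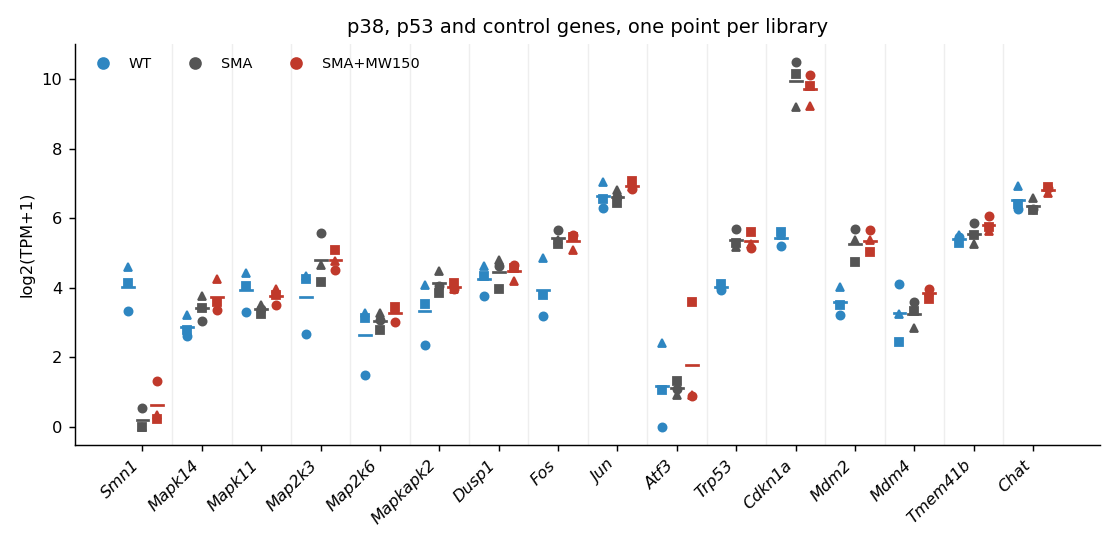
Levels of 16 genes fixed by name, as log2(TPM+1), with 1 point per library of WT (blue), SMA (grey) and SMA+MW150 (red). Marker shapes are replicate numbers (circle 1, square 2, triangle 3) and bars are group means. SMA and SMA+MW150 points interleave for most genes, and Cdkn1a lies far above WT in both groups.

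In the p53 branch, p53 itself and its main outputs overlapped between MW150 and vehicle. Trp53 was at 50.4, 37.8 and 34.9 TPM in SMA and 34.5, 47.1 and 36.9 TPM with MW150, a change of -0.05 (-0.81 to 0.71). Cdkn1a, which encodes the cell cycle inhibitor p21, was at 1431, 1140.3 and 590.4 TPM against 1115, 898 and 601 TPM, while WT had 35.9 to 47.5 TPM. Its change of -0.23 had an interval of -1.07 to 0.62. Mdm2, the ligase that degrades p53, was at 25.8 to 50.4 TPM against 31.3 to 49.9 TPM. Mdm4, its partner that blocks p53 and whose splicing is altered when SMN is low, was at 10.9, 8.98 and 6.09 TPM in SMA and 14.5, 11.8 and 13.6 TPM with MW150. Mdm4 did not overlap, and its change was 0.60 (-0.29 to 1.48).

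As a group, p53 target genes leaned to the lower side, and 1 library carried much of that. Of 42 targets, 30 had a change below 0 and 12 above (28.6%, beside 57.9% of all genes), and the median was -0.18 (scaled -0.25). These genes were listed as targets with earlier results of these data known, so the count is no independent evidence of a direction. None was called, and in limma's test 2 had an unadjusted p under 0.05, both lower, beside 0.389% of all genes. Without SMA 1, the median was 0.02. Perp, a membrane protein of the death branch, shows this: it was at 118, 38.6 and 40.1 TPM in SMA and 32.7, 39.4 and 21.8 TPM with MW150. Fas, the death receptor, was at 47.8, 21.1 and 16.1 TPM against 19.8, 16.0 and 14.5 TPM, and Trp73, a relative of p53, at 6.39, 1.88 and 1.37 TPM against 1.67, 0.764 and 0.430 TPM. In all 3 genes SMA 1 was the highest of the 6 libraries. Without SMA 1, the median of the 12 death genes was -0.11, that of 11 arrest genes 0.01 and that of 19 repair and metabolism genes 0.13. In 3 death genes the MW150 libraries lay below SMA without overlap (25%, beside 3.41% of all genes), and in 4 after scaling (33.3%, beside 5.29%). Eda2r, a receptor of the same family as Fas, was 1 of them, at 6.05, 4.77 and 4.43 TPM against 2.73, 1.66 and 3.08 TPM, with a WT mean of 0.719 TPM. SMA 1 was also the SMA library with the lowest oligodendrocyte, astrocyte and red blood cell sums; the part of this in the p53 values was not tested.

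The SMN axis was checked as well. Smn1 was at 0.462, 0 and 0 TPM in SMA and 1.498, 0.162 and 0.252 TPM with MW150, against 8.97 to 23.3 TPM in WT. Tmem41b, whose minor intron depends on SMN, was at 56.5, 44.8 and 37.1 TPM against 66.2, 52.1 and 48.3 TPM and overlapped. The 33 Sm, LSm and Gemin genes tested were listed by name, and not all are partners of SMN in building spliceosomal particles. Of them, 12 were above 0 and 21 below (median -0.07, scaled -0.15). Snrpb was at 238, 226 and 210 TPM in SMA and 173, 185 and 186 TPM with MW150. Among 31 SR proteins and hnRNPs, regulators of splice site choice, 8 lay above SMA without overlap and 1 below, or 5 and 1 after scaling. Those above are 25.8% of the list beside 7.53% of all genes, and 16.1% beside 5.39% after scaling. The list's median was 0.07 on the deposited scale but -0.01 after scaling, close to all genes in both cases. Srsf7 was at 90.5, 74.1 and 97.2 TPM against 128, 105 and 113 TPM, and kept its separation after scaling.

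Of the 4 lists of neuronal receptors and channels, glutamate receptors had the largest share of members above 0, on both scales. Over all tested genes 57.9% were above 0, and 48.1% after scaling. Of 24 glutamate receptor genes, 22 had a change above 0, and 20 after scaling, with a median of 0.30 (scaled 0.22), and the median stayed between 0.19 and 0.40 when any 1 of the 6 libraries was left out. In 3 of them (12.5%, beside 7.53% of all genes) the groups did not overlap, and in 1 (4.17%, beside 5.39%) after scaling; none was called. Gria2, the AMPA receptor subunit that limits calcium entry (chr3:80681450-80802835, minus strand), was at 55.8, 65.4 and 56.9 TPM in SMA and 111, 87.04 and 88.7 TPM with MW150. Its change was 0.67 (0.06 to 1.28), and WT had 75.1 to 184 TPM. Grin2a, an NMDA receptor subunit, was at 7.595, 13.3 and 15.5 TPM against 21.7, 16.1 and 16.1 TPM, and overlapped after scaling. Grm5, a metabotropic receptor, overlapped on both scales, at 4.67 to 9.01 TPM against 8.07 to 12.3 TPM.

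Of 34 sodium and calcium channel genes, 23 were above 0 and 8 lay above SMA without overlap, 23.5% of the list beside 7.53% of all genes. After scaling 8 lay above as well (23.5%, beside 5.39% of all genes), and 1 below (2.94%, beside 5.29%). The median was 0.25 (scaled 0.18), and between 0.11 and 0.30 without any 1 library. Cacna1a, the pore of the P/Q-type calcium channel that triggers transmitter release at the neuromuscular junction, was at 4.91, 17.2 and 6.29 TPM in SMA and 20.2, 18.6 and 22.8 TPM with MW150, with 13.8 to 18.5 TPM in WT. Cacna1b, the N-type channel, was at 2.56, 2.92 and 2.11 TPM against 3.89, 5.64 and 4.78 TPM. Scn1a, a voltage-gated sodium channel, was at 48.8, 63.9 and 60.9 TPM against 92.9, 71.9 and 66.3 TPM. SMA 2 was the highest SMA library for Cacna1a and Scn1a. Of 19 receptors for GABA and glycine, 15 were above 0 (median 0.23, scaled 0.15), and the median was between 0.14 and 0.41 without any 1 library. Gabra2 was at 42.4, 42.5 and 67.4 TPM against 93.4, 75.6 and 65.2 TPM, so SMA 3 and SMA+MW150 3 crossed over. Potassium channels were nearer to all genes, with 37 of 66 above 0 (56.1%, beside 57.9% of all genes) and a median of 0.08. Kcna1, which shapes the axonal action potential, was at 31.5, 52.7 and 53.1 TPM in SMA and 75.3, 72.7 and 65.8 TPM with MW150.

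Motor neuron identity genes had a median of 0.25 (scaled 0.17), with 12 of 19 above 0 (63.2%, beside 57.9% of all genes) and 4 above SMA without overlap (21.1%, beside 7.53%). After scaling 10 were above 0 and 9 below, and 3 lay above SMA without overlap (15.8%, beside 5.39%). Chat was at 75.8, 73.5 and 94.4 TPM in SMA and 115, 118 and 103 TPM with MW150, a change of 0.47 (-0.21 to 1.14). Nefh, the heavy neurofilament chain of large axons, was at 793, 801 and 904 TPM against 1189, 1156 and 992 TPM. Esrrg, a marker of gamma motor neurons, was at 21.4, 40.6 and 41.1 TPM against 54.1, 45.6 and 57.3 TPM. Mmp9, which marks fast alpha motor neurons, was at 2.24, 2.12 and 10.7 TPM against 10.01, 8.31 and 8.22 TPM, so SMA 3 was the highest library of all 6. Without SMA+MW150 2, the list's median was 0.05, against 0.08 for all genes. Of 28 synaptic vesicle genes 20 were above 0 (median 0.12, scaled 0.04). Syt2, the calcium sensor of fast synapses, was at 72.0, 119.9 and 89.4 TPM against 154, 137 and 120.2 TPM, and overlapped after scaling. The list labelled axonal transport holds 59 tested kinesin, dynein and dynactin genes, taken by name and not by a role in axons. Its median was 0.09, and Kif21b, a kinesin, was at 1.72 to 2.25 TPM against 3.88 to 6.30 TPM.

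**Figure D4:**
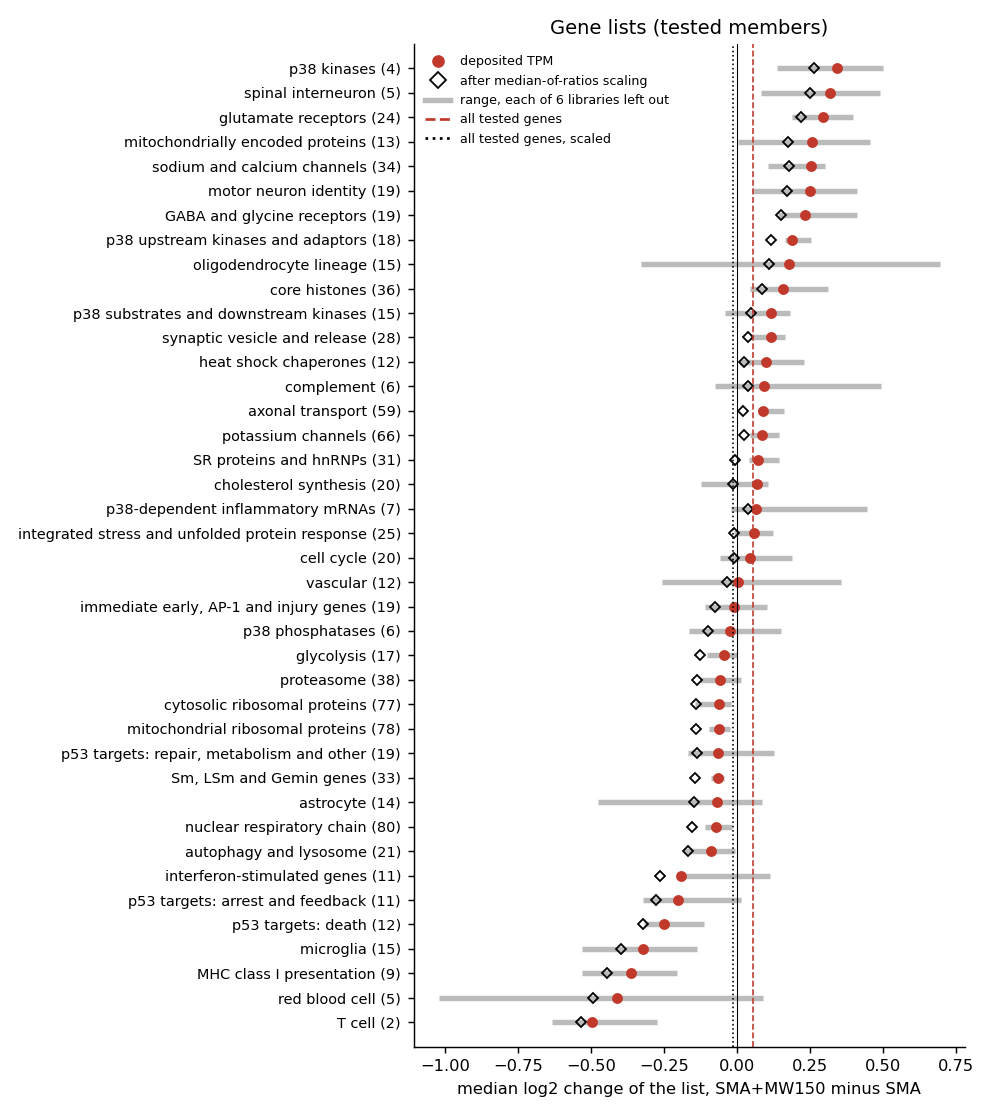
Median log2 change of each gene list, SMA+MW150 minus SMA, from the deposited TPM (red circles) and after median-of-ratios scaling (open diamonds), with the number of tested members in brackets. Grey bars give the range when each of the 6 libraries was left out, and the lines mark all tested genes at 0.06 (dashed) and -0.01 (dotted, scaled). The bars of glutamate receptors, of sodium and calcium channels and of GABA and glycine receptors stay right of the dashed line. So do those of p38 kinases, p38 upstream kinases and adaptors, axonal transport and spinal interneuron markers. The dashed line is the median with all 6 libraries, and the median of all genes also moved in this check. Without SMA+MW150 2 it was 0.080, and axonal transport, at 0.074, then lay below all genes. The bars of glial and blood lists are among the widest.

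Genes of the energy and protein machinery lay on the other side, by small amounts. Of 77 cytosolic ribosomal proteins, 66 were below 0, with a median of -0.06 (scaled -0.14). Rps4x was at 297, 326 and 285 TPM in SMA and 248, 255 and 267 TPM with MW150, and 3 members of the list lay below SMA without overlap. Those 3 are 3.896% of the list, near the 3.41% of all genes; after scaling 13 lay below, 16.9% beside 5.29% of all genes. The list's median was -0.02 without SMA 2 and -0.15 without SMA+MW150 3. The 80 nuclear-encoded respiratory chain genes split 60 below and 20 above (median -0.07, scaled -0.15), and 77 and 3 after scaling. Their median was -0.02 without SMA+MW150 1 and -0.11 without SMA+MW150 3. Mitochondrial ribosomal proteins split 52 and 26 (-0.06, scaled -0.14), or 67 and 11 after scaling, and their median ran from -0.10 without SMA 2 to -0.02 without SMA+MW150 1. Among them was Mrpl13, at 153, 169 and 129 TPM against 117, 121 and 122 TPM. Of 38 proteasome genes, 30 were below 0 and 5 lay below SMA without overlap, 13.2% of the list beside 3.41% of all genes. Without SMA 1 the proteasome median was 0.01. Psma6, a subunit of the core particle, was at 503, 429 and 458 TPM against 329, 379 and 381 TPM. All 13 proteins encoded by mitochondrial DNA, in contrast, were above 0 (median 0.26). That median was 0.00 without SMA 1, the library with the lowest mitochondrial share.

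Microglial genes lay lower with MW150 in most members, and none was called. Of 15 microglial genes 12 were below 0 (median -0.32, scaled -0.40), and their summed level was 211 to 251 TPM in SMA, 152 to 215 TPM with MW150 and 79.3 to 113 TPM in WT. C1qc, a chain of complement C1q, was at 19.6, 30.2 and 25.4 TPM in SMA and 16.9, 16.9 and 12.3 TPM with MW150, and C1qa did not overlap either, at 14.4 to 17.3 TPM against 9.66 to 13.1 TPM. Ctss, a lysosomal protease of microglia, overlapped, at 15.4 to 26.1 TPM against 9.29 to 21.7 TPM. The list's median stayed below 0 without any 1 library, from -0.53 to -0.14. Astrocyte markers had a median of -0.07 that ran from -0.48 to 0.09 in the same check, and oligodendrocyte markers 0.18, from -0.33 to 0.70. Of 9 genes of antigen presentation by MHC class I, 8 were below 0 (median -0.36, scaled -0.45). The 9 summed to 742 TPM in SMA 1 and to 359 and 351 TPM in the other SMA libraries, and without SMA 1 the median was -0.21. Tap1, the peptide transporter, was at 21.9, 11.0 and 8.83 TPM against 5.64, 9.25 and 6.69 TPM, with a WT mean of 0.504 TPM. Isg15, an interferon-stimulated modifier, was at 1.13, 3.78 and 2.32 TPM against 0.735, 0.326 and 0.885 TPM, and the 11 interferon-stimulated genes tested split 4 above and 7 below. The median of that list was -0.19, and 0.11 without SMA 2. The part of captured microglia in these values was not tested.

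Across genes, the change with MW150 went with the length of the gene. The 14274 tested protein-coding genes were divided into 5 equal bins by gene span, the distance from the first to the last annotated base. From the shortest bin (up to 7955 bases) to the longest (77184 bases and more), the median log2 change was -0.02, 0.01, 0.03, 0.10 and 0.18. Genes above SMA without overlap made up 4.94% of the shortest bin and 11.2% of the longest, and genes below made up 4.87% and 1.79%. Across these genes, Spearman's rho between span and change was 0.21; genes of 1 library share its depth and RNA quality and are not independent replicates. The mean length of a gene's transcripts gave a rho of 0.20.

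The 2 groups overlapped in this measure. The deviation of the longest bin minus that of the shortest was -0.22, 0.04 and -0.14 in SMA 1, 2 and 3 and 0.28, 0.01 and 0.02 in SMA+MW150 1, 2 and 3. The difference between these bins was 0.20 with all libraries and 0.20 after scaling, and 0.11 without SMA+MW150 1. Outside the comparison the same measure was 0.86 in WT 1 and 0.37 in SMA+Pifithrin-alpha 3, with mitochondrial shares of 21.9% and 20.4%. It was 0.18 in both SMA+Pifithrin-alpha 1 and 2, with shares of 5.78% and 12.6%, and -0.07 in SMA+SMN-C3 1, with 11.3%. In SMA+SMN-C3 2 and 3 it was -0.23 and -0.20, with shares of 5.92% and 6.92%. WT 2 and 3 were at -0.08 and 0.08, with 7.55% and 7.52%. The lists differ in span. Its median was 348598 bases for glutamate receptors and 113196 for sodium and calcium channels, against 3289 for cytosolic ribosomal proteins and 12807 for the proteasome. The part of gene span in the list medians was not tested.

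**Figure D5:**
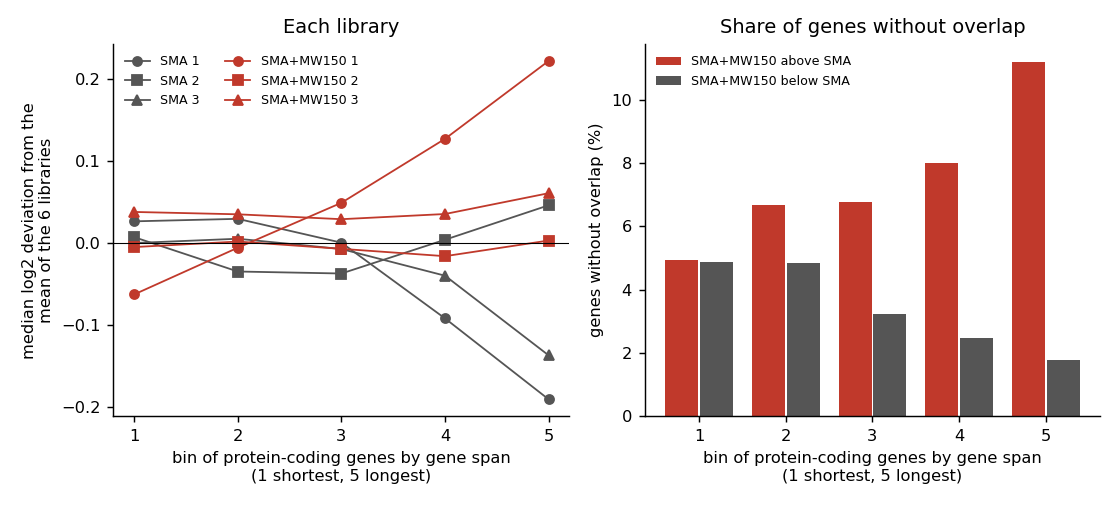
Left, median log2 deviation of each library from the mean of the 6 (vertical axis) over 5 bins of protein-coding genes by span (horizontal axis, 1 shortest). Right, the percent of each bin's genes in which the 3 SMA+MW150 libraries lay above (red) or below (grey) the 3 SMA libraries; SMA+MW150 1 and SMA 1 bend most, and the share above goes from 4.94% to 11.2%.

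Setting MW150 against WT asks what remained of the disease state. In this comparison 22 genes (0.143%) were called, 21 of them higher with MW150 and Smn1 lower. The 21 had log2 changes from 1.78 to 4.58 against WT. Cdkn1a was the most abundant, with a change of 4.28 (adjusted p = 5.9e-05). Dcxr, an enzyme that reduces sugars and carbonyls, was named after its values were seen; it was at 14.3 ± 2.62 TPM in WT, 319 ± 137 TPM in SMA and 224 ± 17.9 TPM with MW150 (SD, n = 3 each; limma's adjusted p against WT 5.9e-05). Of the 21, 5 belong to the p53 target lists, namely Cdkn1a, Fas, Mdm2, Plk2 and Gtse1, the last named after its values were seen. They are 5 of 42 listed targets, beside 0.143% of all genes, and the lists were chosen with earlier results known. Fas was called under 3 of the 11 alternatives, Mdm2 and Plk2 under 4 each, and Gtse1 under 3 of the 10 that kept it. The median log2 change of all genes against WT was 0.31. After scaling it was 0.04, and 19 genes were called. None of the 21 was separated from SMA: the libraries overlapped in all of them. Their median log2 change from SMA was -0.36, and 18 were below 0, but without SMA 1 it was 0.04 and 10 were below 0. In 18 of them SMA 1 was the highest SMA library. The count of 22 was 9 to 14 when SMA+MW150 1, 2 or 3 or WT 1 or 2 was left out, and 7 of the 22, Cdkn1a and Dcxr included, were called under all 11 alternatives tried.

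Against the other treatments, MW150 libraries differed in level from SMN-C3 libraries in 1 gene (0.00648%) and from Pifithrin-alpha libraries in 0 (0%). With Pifithrin-alpha, limma gave 1137 genes higher with MW150 and 249 lower at an unadjusted p under 0.05, and 503 and 818 after scaling. Without SMA+Pifithrin-alpha 3, with 20.4% mitochondrial TPM, the unscaled counts were 282 and 83, and without SMA+Pifithrin-alpha 1 they were 3459 and 579. The 1 gene was Ly6d, a membrane protein that was likewise named after its values were seen. It was listed at 0 in all 3 SMN-C3 and all 3 WT libraries, at 34.4 ± 24.4 TPM in SMA and at 23.1, 16.6 and 30.9 TPM with MW150 (limma's adjusted p against SMN-C3 = 0.0083). That call was lost without SMA+MW150 3, SMA+SMN-C3 1 or SMA+SMN-C3 3. The count against SMN-C3 depended strongly on the fit: with only the 6 libraries of those groups it was 453, of which 449 were higher with MW150. The median log2 change of all genes was 0.30 in that comparison and 0.01 after scaling.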

How the data were processed

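The deposited tables hold TPM per gene and per transcript, as the authors computed them. The submitters' processing notes name kallisto 0.44.0, DESeq2 and the builds GRCm38.p6 and mm10, without giving their roles. The index, annotation release and read trimming are not given in the sources used here. Each deposited library sums to 1000000 TPM. Of the 36144 symbols, 99.5% matched GENCODE M21, and gene spans, coordinates and transcript sequences come from that release on GRCm38. All 15 columns were mapped to samples.

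Values were taken as log2(TPM+1). All 15 libraries entered 1 linear model in limma 3.58.1, with a mean for each group (R 4.3.3; variances moderated with a trend), and two-sided p-values were adjusted with Benjamini-Hochberg over all 15425 genes or all 41719 transcripts. Intervals are limma's 95% intervals, unadjusted. Scaling divided each library by its median-of-ratios size factor, 1.08 to 1.15 in SMA and 1.14 to 1.22 with MW150. Since the tables hold no counts, no count model was used. The test was checked on simulated data. Labels name no batch.

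The genes named are a panel of 16, every gene called against SMA, the 12 highest and 12 lowest by moderated t among genes with a mean of at least 5 TPM in either group and no overlap with and without scaling, and up to 4 members with the largest moderated t of each of 40 lists; not all of the last are printed. The members and lists were chosen with earlier results of these data known. Lists are described by counts and medians, with no list test. Alternatives were other scalings, pseudocounts and filters, fits with fewer groups, array weights, a mitochondrial covariate, the replicate number as a block and leaving out each library.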

Additional observations from a re-analysis of the deposited data

How the results depend on the processing

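The alternatives kept most signs but not the few calls. Against SMA the 1 call became 0 with a pseudocount of 0.1 or a filter at a mean of 5 TPM, 2 with no filter or a fit of only both groups, and 3 with array weights. It was 0 to 1 when each library was left out, and 0 without any SMA library. For transcripts the 1 call became 0 with the stricter filter or the fit of only both groups, and 0 to 1 when each library was left out. Against SMN-C3 it became 8 with a pseudocount of 0.1, 453 with the fit of only those groups, 7 with the replicate block and 0 to 2 when each library was left out. It was 0 without SMA+MW150 3, SMA+SMN-C3 1 or SMA+SMN-C3 3, and 2 without SMA+MW150 1 or SMA+SMN-C3 2. Against Pifithrin-alpha the 0 became 1 (Gm13603) with the fit of only those groups and stayed 0 when each library was left out. Against WT the 22 became 12 with the fit of only those groups and 9 to 22 when each library was left out. Leaving out libraries in comparisons other than that of genes with SMA was chosen after seeing the data, and apart from the fewer samples the cause of these differences was not tested.

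Of 80 genes named above, 9 changed direction against SMA under some alternative, and none of the 9 was called. Map2k3 was at 0.083 with array weights, 0.089 with the mitochondrial covariate and -0.32 to 0.38 when each library was left out. Dusp1 was at -0.072 with median-of-ratios scaling, -0.0702 with quantile normalization, -0.078 with array weights and -0.24 to 0.17 without single libraries. Trp53 was at 0.038 with array weights, 0.00053 with the covariate and -0.18 to 0.10 without single libraries. Without single libraries the range was -0.26 to 0.060 for Mapkapk2, -0.17 to 0.042 for Fos, -0.21 to 1.14 for Atf3, -0.60 to 0.041 for Cdkn1a, -0.17 to 0.30 for Mdm2 and -0.50 to 0.11 for Mapk13. Same-numbered SMA and MW150 libraries did not deviate together (correlations of -0.06, -0.19 and 0.06 across genes), so the numbers were not taken as pairs; with the replicate block 1 gene, Traj45, was called against SMA.

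With 3 libraries per group and no counts, precision rests on the spread between libraries. For 8127 genes with a mean of at least 10 TPM, the 95% interval reached a median of 0.74 to either side, and it lay between -1 and 1 for 59.7% of them, so smaller differences were not resolved for many genes.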

Other observations

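The median over all genes was 0.06, or -0.01 after scaling, and the following groups are not described above. Heat shock chaperones had 10 of 12 changes above 0 (median 0.10, scaled 0.02), and 25 genes of the integrated stress and unfolded protein responses had 15 (0.06, scaled -0.01). Cholesterol synthesis had 12 of 20 above 0 (0.07, scaled -0.01), glycolysis 8 of 17 (-0.05, scaled -0.13), and autophagy and lysosome 7 of 21 (-0.09, scaled -0.17). Of 36 histone genes 25 were above 0 (0.16, scaled 0.08). Labelled core histones in the figure of the lists, they include H1 linker histones as well. Many histone messages lack a poly(A) tail. Cell cycle genes split 10 and 10 and complement genes 4 and 2. None of these genes was called.

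A class picked after its values were seen was that of T cell receptor variable segments. Of 17 tested, 5 lay below SMA without overlap (29.4%, beside 3.41% of all genes) and none above, with a median log2 change of -0.49 (scaled -0.45). The 17 summed to 75.5, 52.4 and 38.004 TPM in SMA and to 20.9, 51.1 and 26.5 TPM with MW150, so the sums overlapped. Processed pseudogenes, 758 of them, had a median of 0.11 (scaled 0.06).

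Among the 21 genes higher with MW150 than in WT, the standard deviation between libraries was larger in SMA than with MW150 in 20. SMA 1 was the highest SMA library in 18 of the 21. These genes were chosen on the MW150 libraries, which requires a small spread there, so the comparison is a description.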
